A study of Vitis vinifera with 72 samples.

Results

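In the pericarp of grapevine berries, 69 of 29971 gene IDs (0.230%) had FPKM in Sangiovese and next to none in Cabernet Sauvignon. They were chosen by 2 conditions: below 0.2 FPKM in each of the 36 Cabernet Sauvignon libraries, and a mean of at least 1 FPKM over the 36 Sangiovese libraries. FPKM counts a gene's sequenced fragments per length of its transcript and per number of fragments mapped in that library, so it is a relative level. The levels in both cultivars chose these genes, so the difference between the cultivars is described and not tested. The same conditions with the cultivars exchanged were met by 84 genes.

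RNA came from the skin and flesh of field-grown berries of both cultivars, with 36 libraries each. Berries were taken at pre-veraison (PV, BBCH code 79) and at mid-ripening (MR, BBCH code 83), where the BBCH scale codes the growth stage of a plant. They came from Bolgheri, Montalcino and Riccione in central Italy, in the growing seasons 2011 and 2012, so each cultivar has 12 groups of 3 biological replicates. The labels name no clone, rootstock, vineyard or sequencing batch, and each area within a year is taken here as 1 sampling site. No marker genes were at hand to check the labelled tissue.

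Veraison is the onset of berry ripening, when berries soften, take up sugar and, in red cultivars such as these, turn coloured. Grapevine cultivars are propagated by cuttings and are highly heterozygous, and cultivars are known to differ in gene content as well as in expression. A gene that is missing from a cultivar, a gene that is silent in it and a gene whose sequence there differs too much for its reads to be aligned all give FPKM near 0, and these values cannot tell them apart. The IDs carry no gene names in the files, and 0 of the 29971 could be found in a RefSeq table of 29591 grapevine genes. The members are therefore given by ID, with no function.

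Relative sequencing depth, estimated from the smallest steps between low values, ranged from 0.739 to 1.27 times a typical library in Sangiovese and from 0.512 to 2.20 times in Cabernet Sauvignon. Absolute read numbers are unknown. The median Cabernet Sauvignon library had a relative depth of 1.02 at PV and 0.963 at MR, against 0.958 and 1.013 in Sangiovese. The libraries carry no strand information, so a member that overlaps an antisense gene, or that has a near-identical copy, has a less certain level.

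The members fall into 3 classes by how many Sangiovese libraries reached 0.2 FPKM, called detection here. Of the 69, 33 were detected in all 36 Sangiovese libraries, 26 in 10 to 35 and 10 in under 10. In Cabernet Sauvignon, 22 members were listed at 0 in every library and 47 had a trace in at least 1. Of 2484 Cabernet Sauvignon values, 1975 (79.5%) were 0. The other 509 had a median of 0.0430 FPKM and a highest value of 0.195 FPKM. In Sangiovese, 450 of 2484 values (18.1%) were 0.

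**Figure D1:**
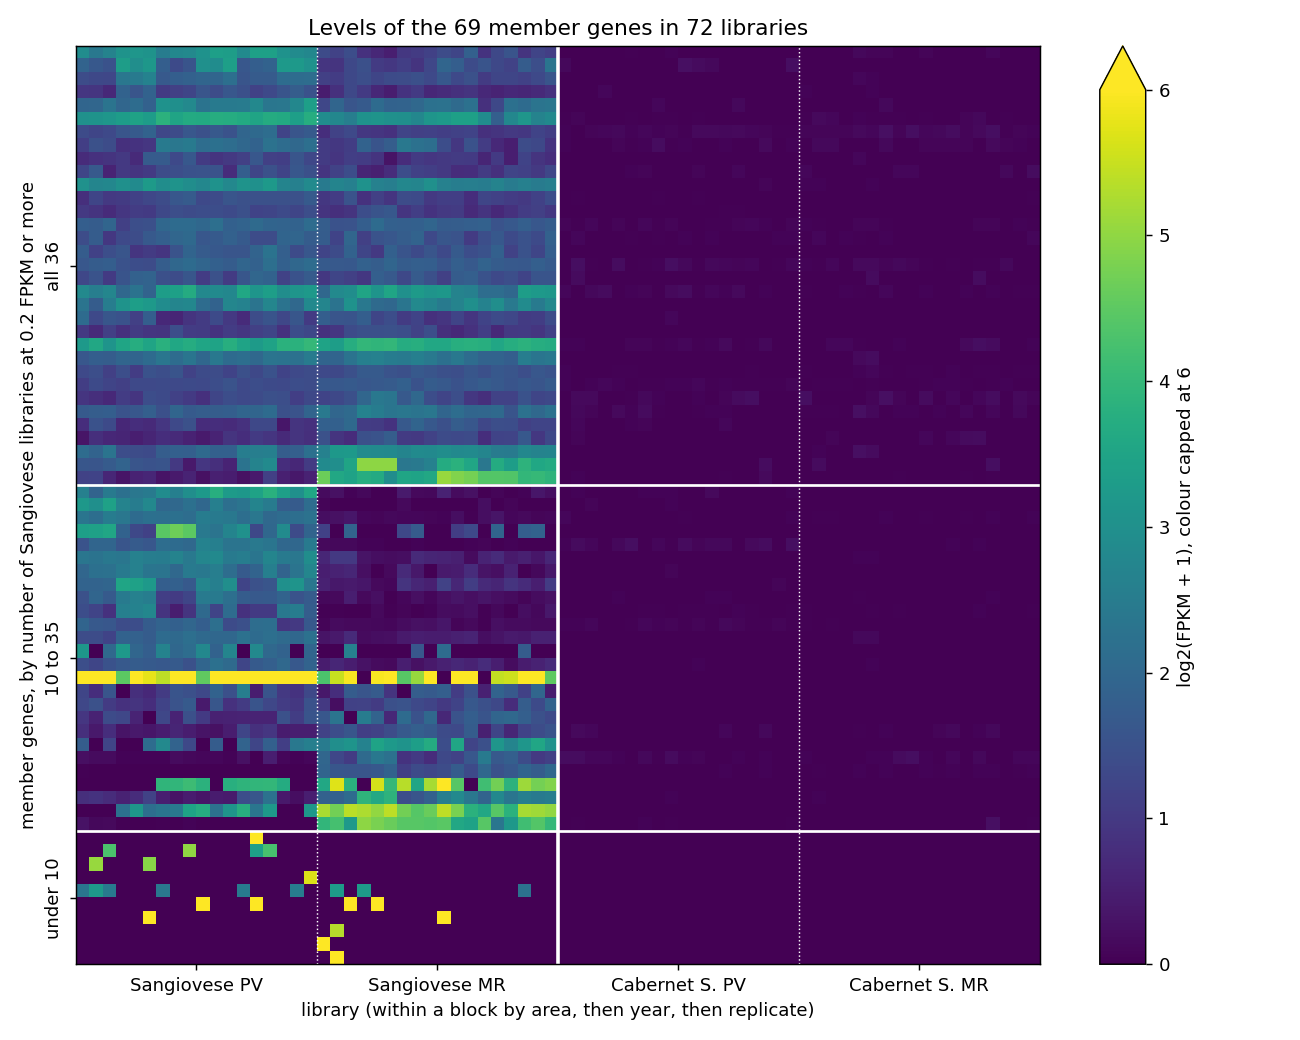
Level of each of the 69 members (rows) in each of the 72 libraries (columns), as log2(FPKM + 1) with colours capped at 6. White lines part the cultivars and the 3 detection classes (33, 26 and 10 members), and dotted lines part PV from MR. The Cabernet Sauvignon side is dark throughout by the choice of the genes. On the Sangiovese side the class detected in under 10 libraries appears as single bright cells, 26 values above 0 among 360.

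Most members were expressed at a low level. The mean over the 36 Sangiovese libraries lay from 1 to 2 FPKM for 32 members, from 2 to 5 for 22, from 5 to 10 for 9 and at 10 or more for 6. The median of these means was 2.15 FPKM and the range was 1.03 to 88.2 FPKM. In a Sangiovese library, all members together took 0.0227% to 0.193% of all FPKM at PV (median 0.0365%) and 0.0177% to 0.231% at MR (median 0.0316%). Without the 10 members detected in under 10 libraries, the highest shares were 0.0504% at PV and 0.0385% at MR.

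The values of a gene with low FPKM fell on steps, as whole fragments would give: after adjusting for relative depth, they were whole multiples of a smallest value. A step was counted as resolved where a member had at least 3 low values and at least 80% of them lay within 0.15 of a whole multiple. This held for 55 members, in which 657 of 658 low values (99.8%) lay on whole multiples. The steps were fitted to these same values, and the 55 members were kept for lying on them. The share is therefore set by the fit and the criterion, and is a description. For 14 members no step was resolved, 7 of them detected in under 10 libraries, where there were too few values. Also among the 14 are the 3 members that were at 0 in all Cabernet Sauvignon libraries and detected in all 36 Sangiovese libraries, VIT_13s0158g00270, VIT_00s0524g00020 and VIT_11s0065g00070. Their step is unknown, since they have no values near 0.

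For 44 of the 55 members, a step was worth 0.00789 to 0.135 FPKM in a library of relative depth 1. At the depths of the Cabernet Sauvignon libraries, 1 step lay below the ceiling of 0.2 FPKM in every library for 42 of the 44, and in all but 1 library at most for the other 2. These 44 had 477 to 22512 steps summed over the 36 Sangiovese libraries, with a median of 2184. Over the 36 Cabernet Sauvignon libraries the same members had 0.963 to 195 steps, with a median of 16.3. VIT_19s0014g05160 had the most, with 195 Cabernet Sauvignon steps beside 3854 in Sangiovese, and was above 0 in all 36 Cabernet Sauvignon libraries. VIT_10s0042g00630 had the fewest, with 0.963 beside 771. For the other 11 members a step was worth 0.350 to 163 FPKM at relative depth 1, and they had 4.00 to 156 steps over all Sangiovese libraries. For 10 of those 11, 1 step reached the ceiling in every Cabernet Sauvignon library, so the ceiling could be met only at 0. For the other it did so in 35 of 36 libraries.

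**Figure D2:**
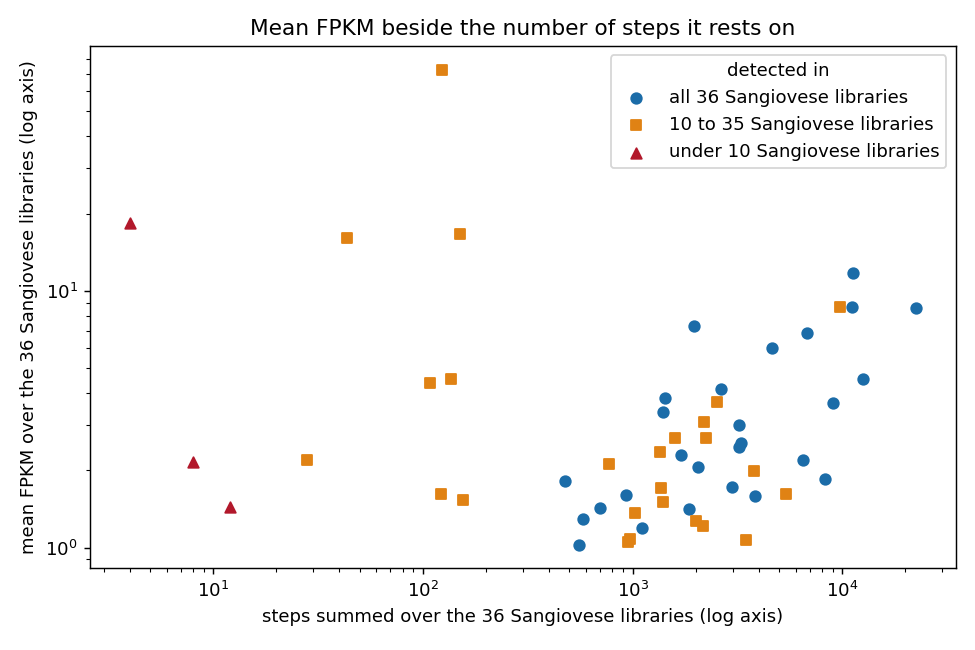
Mean FPKM over the 36 Sangiovese libraries against the number of steps summed over those libraries, both on log axes, for the 55 members with a resolved step. Circles, squares and triangles stand for members detected in all 36, in 10 to 35 and in under 10 Sangiovese libraries. A high mean does not go with many steps: VIT_18s0001g06570, at 72.7 FPKM, has 123 steps, while VIT_14s0066g00170, at 11.7 FPKM, has 11220.

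The member with the highest mean, VIT_14s0066g00570 (88.2 FPKM), rested on 2 libraries. It read 1855 FPKM in MR Montalcino 2012 replicate 1 and 1321 FPKM in PV Bolgheri 2012 replicate 3, and 0 in the other 34 Sangiovese libraries. Adjusted for relative depth, both lay within 0.15 of 1 step of 1483 FPKM, a step fitted to these 2 values alone and so not resolved: the library with the larger value had a relative depth of 0.803, the other of 1.12.

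VIT_12s0034g01290 (mean 18.4 FPKM) was above 0 in 4 libraries, 2 at each stage. Its values there ran from 157 to 177 FPKM, and each was within 0.15 of 1 step of 163 FPKM. VIT_09s0002g01970 (mean 7.76 FPKM) had a single value of 279 FPKM, in MR Bolgheri 2011 replicate 2.

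These 3 belong to the 10 members detected in under 10 libraries, all of them at 0 in every Cabernet Sauvignon library. Of the 10, 5 were detected in 1 library, 2 in 2, 2 in 4 and 1 in 9. Their 26 values above 0 ranged from 3.75 to 1855 FPKM, and 9 of the 10 had no group in which all 3 replicates were detected. In the 5 members with more than 1 value above 0, all 21 values lay within 0.15 of a whole step, and no value of the class exceeded 3.03 steps. In all, 20 of the 26 values were at 1 step, 5 of them by construction, being the lone values of their genes. In the 5 members with more than 1 value, the step was fitted from the smallest value. That value therefore also lies near 1 step by the fit. Genes detected in so few libraries were 14.5% of the members and 0.319% of the 17568 genes with a Sangiovese mean of at least 1 FPKM. For 7 of the 10 the step was not resolved by the criterion given, for want of values. With so few libraries above 0, their mean is no measure of a level shared by the Sangiovese libraries.

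Of the other members with a mean of at least 10 FPKM, 3 also had large steps. VIT_18s0001g06570 ranged from 0 to 224 FPKM with a median of 71.2 FPKM in Sangiovese, in steps of 21.0 FPKM. It was detected in 33 libraries, and 3 MR libraries were at 0 although their group's other replicates were not. VIT_10s0116g00040 was detected in 31 libraries in steps of 3.98 FPKM (median 12.4, highest 41.4 FPKM). VIT_00s0239g00130 was detected in 25 in steps of 13.1 FPKM (median 13.7, highest 62.8 FPKM). In 11 members, replicates of the same group read both below 0.2 and at least 10 FPKM, and 9 of these belong to the class detected in under 10 libraries.

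The 33 members detected in all 36 Sangiovese libraries had means of 1.03 to 11.7 FPKM and a median of 2.19 FPKM. The highest, VIT_14s0066g00170, read 7.54 FPKM in its lowest library, 12.2 in the median and 15.1 in the highest, a mean of 11.7 FPKM (SD 1.79, n = 36). Its 11220 Sangiovese steps compare with 36.9 in Cabernet Sauvignon, where 16 libraries were at 0 and the highest read 0.159 FPKM. VIT_04s0023g02350 followed at 8.64 FPKM (SD 2.58, n = 36), from 2.55 to 13.5 FPKM.

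Within these 33 the ratio of the highest to the lowest library ran from 1.97 to 159, with a median of 4.78, and 8 members stayed under 3. VIT_16s0115g00220 had the narrowest range, 4.43 to 8.70 FPKM. VIT_09s0018g00780 had the widest, 0.207 to 32.9 FPKM, with all PV libraries below all MR libraries. The 3 members of this class listed at 0 throughout Cabernet Sauvignon had Sangiovese means of 5.21 FPKM (SD 1.61) for VIT_13s0158g00270, 1.92 FPKM (SD 0.636) for VIT_00s0524g00020 and 1.14 FPKM (SD 0.365) for VIT_11s0065g00070, each over 36 libraries. No library of VIT_13s0158g00270 fell below 2.36 FPKM.

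The spread between replicates, as the median over genes of the pooled SD on the log2(FPKM + 1) scale, was 0.142 for the 19653 genes tested and 0.226 for the members. It was 0.195 for the members detected in all 36 libraries and 1.22 for the members detected in under 10 libraries.

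Both thresholds cut through a continuum of values. The members nearest the floor had Sangiovese means of 1.03 (VIT_08s0032g01100), 1.05 (VIT_01s0146g00090) and 1.07 FPKM (VIT_13s0019g01250). The genes just below it read 0.983 (VIT_06s0004g07590), 0.978 (VIT_10s0042g00640) and 0.954 FPKM (VIT_13s0067g03640). At the ceiling, the highest Cabernet Sauvignon values among members were 0.195 (VIT_00s0324g00060), 0.192 (VIT_12s0055g01240) and 0.186 FPKM (VIT_13s0067g00490). Just above it were 0.208 (VIT_00s0513g00020), 0.210 (VIT_06s0004g05590) and 0.212 FPKM (VIT_00s0187g00170). The last of these had a Sangiovese mean of 34.996 FPKM and passed 0.2 FPKM in 2 Cabernet Sauvignon libraries.

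A further 23 genes met the floor and were kept out by 1 Cabernet Sauvignon library each, 13 of them detected in all 36 Sangiovese libraries. The excluding value was under 1 FPKM for 18 and at least 10 FPKM for 4, and the excluding libraries numbered 17, with at most 2 genes each. VIT_13s0064g00350 had the highest Sangiovese level of these, at 139.6 FPKM (SD 64.8, n = 36). It read 18.6 FPKM in Cabernet Sauvignon MR Montalcino 2011 replicate 1 and 0 in the other 35.

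Stage, year and area were compared within Sangiovese with limma on log2(FPKM + 1) over 36 libraries, with p-values adjusted over all 19653 genes tested. The floor is a mean over all Sangiovese libraries, so a member near 0 on one side of such a comparison entered through the other side and had to differ. Each comparison therefore gives how many called members still met the floor of 1 FPKM without the libraries of their higher side, and named members that did not are given with no p-value. A gene is called at an adjusted p below 0.05. All 69 members passed the filter of a group mean of at least 1 FPKM, which their choice ensures. The p-values measure the spread between the 3 replicates of a group, and differences on this scale understate the change of genes with low FPKM. In bulk tissue, fewer cells of a type and less RNA per cell cannot be told apart.

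Between stages, 20 of the 69 members rose from PV to MR and 30 fell. Of all tested genes, 33.7% rose and 54.5% fell, which makes 88.3% called, against 72.5% of the members. At each stage by itself, 39 members met the floor, and of these 12 rose and 14 fell. The other 30 entered through 1 stage, and their 8 rises and 16 falls are no support for a stage difference. Counting only the called differences above 2-fold, 9 members rose (13.04%, against 7.13% of all genes) and 17 fell (24.6%, against 18.9%), counts that include members that entered through 1 stage. The members' median difference was -0.10 and that of all genes -0.20, on the log2(FPKM + 1) scale. Under quantile normalization, which moves the median of all genes to 0.084, 34 members were called higher and 22 lower. Under median-of-ratios scaling, which moves it to -0.041, the counts were 21 and 28. Of the 10 members detected in under 10 libraries, 1 was called, VIT_08s0007g00260, which is above 0 at PV only and had to differ.

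The 4 members named for stage all entered through 1 stage, and their differences are descriptions. VIT_00s0324g00060 showed the largest rise. At PV it read from 0 to 0.219 FPKM with a median of 0, and at MR from 4.08 to 30.8 FPKM with a median of 18.9. The stages did not overlap, and 1 PV library, from Bolgheri in 2011, reached 0.2 FPKM. The difference was 4.03 on the log2(FPKM + 1) scale (SE 0.12).

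VIT_09s0018g00780 was detected at both stages and rose in every group of matched area and year. It read 0.207 to 1.31 FPKM at PV (median 0.449) and 6.74 to 32.9 FPKM at MR (median 14.4), a difference of 3.44 (SE 0.094). At MR it was highest in Montalcino in 2012.

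The largest falls were in genes near 0 at MR. VIT_04s0008g04040 ranged from 2.75 to 12.9 FPKM at PV (median 6.97) and from 0 to 0.501 FPKM at MR (median 0.109), a difference of -2.78 (SE 0.071). VIT_00s0181g00200 ranged from 2.30 to 9.76 FPKM at PV (median 4.28). At MR its highest library read 0.161 FPKM and all 9 libraries of 2012 were at 0. Its difference was -2.40 (SE 0.053).

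**Figure D3:**
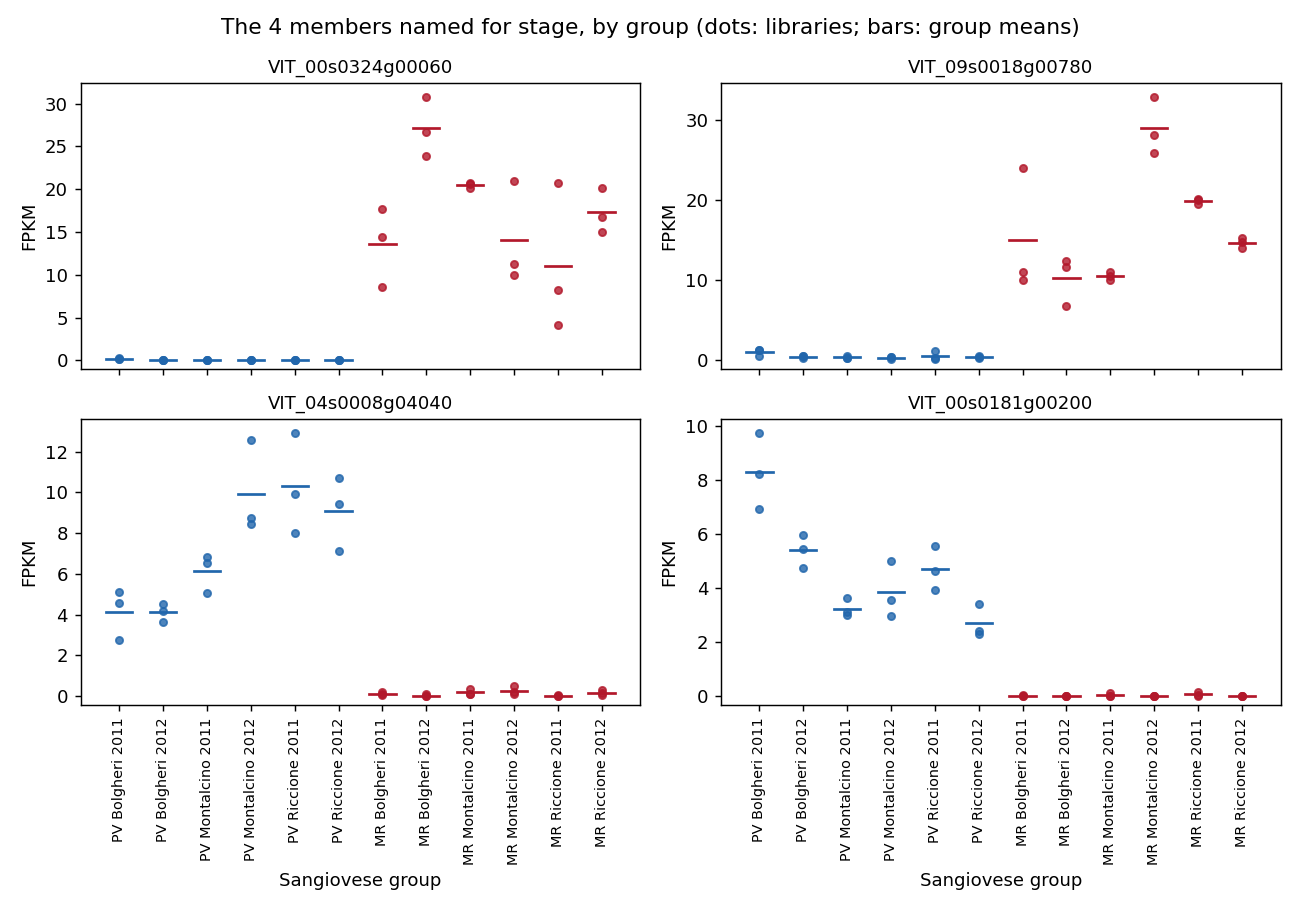
FPKM of the 4 members named for the stage difference in the 36 Sangiovese libraries (dots), with the mean of each group of 3 as a bar, for PV in blue and MR in red. VIT_00s0324g00060 and VIT_09s0018g00780 are near 0 at PV and spread from 4.08 to 32.9 FPKM at MR. VIT_04s0008g04040 and VIT_00s0181g00200 lie between 2.30 and 12.9 FPKM at PV and near 0 at MR.

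Over all members, the PV and MR libraries did not overlap in 17: PV was above MR in 13 and MR above PV in 4, while 52 overlapped. Over all tested genes, PV was above MR without overlap in 20.9% and MR above PV in 8.83%, against 18.8% and 5.80% of the members. Of the 17, only VIT_06s0061g00640 met the floor at each stage by itself, with a mean of 1.27 FPKM at MR. The others entered through 1 stage, and their separation is no support for a stage difference. In 3 of these others, detection was complete at 1 stage and absent at the other. No share over all genes was taken for that count, so it is a description. VIT_00s0181g00200 and VIT_02s0025g01820 were detected in all 18 PV libraries and in no MR library. VIT_13s0019g01250 was detected in all 18 MR libraries, from 1.16 to 3.05 FPKM, and in no PV library, where the highest value was 0.022 FPKM. Of the 33 members detected in all 36 libraries, 1 was in each direction, and all 10 members detected in under 10 libraries overlapped.

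Per library, 53 to 59 members were detected at PV (median 56) and 45 to 54 at MR (median 51). The count over all genes was also higher at PV, with 19514 to 20822 detected genes against 18873 to 19520 at MR. Of the members, 48 were detected in all 18 PV libraries and 40 in all 18 MR libraries.

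**Figure D4:**
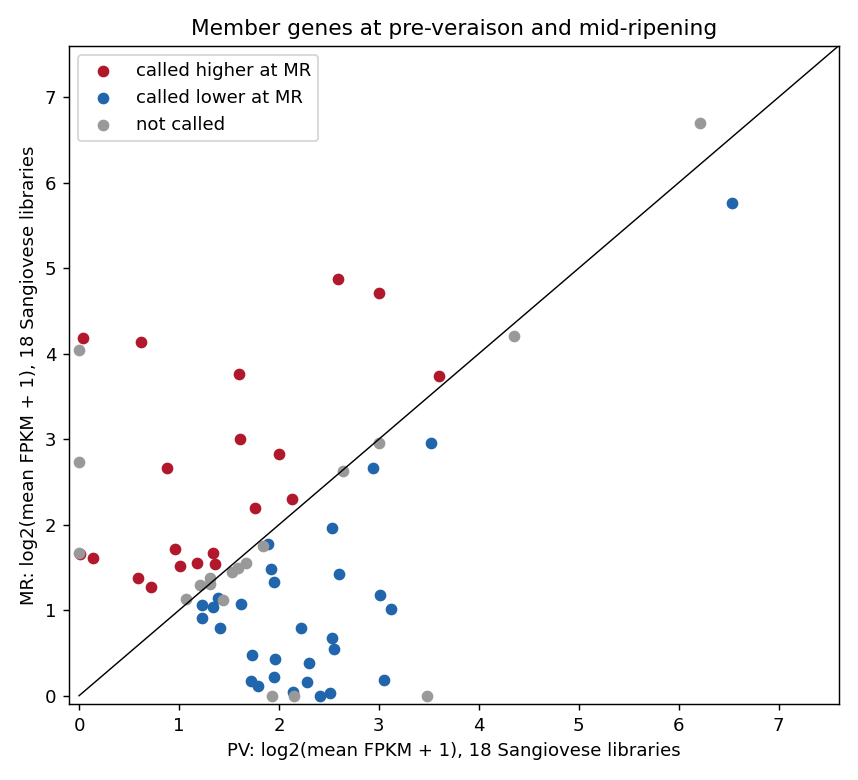
Mean level of each of the 69 members at PV (horizontal axis) and MR (vertical axis), as log2(mean FPKM + 1) over 18 Sangiovese libraries each, with the line of equal levels. Red points are the 20 members called higher at MR, blue the 30 called lower and grey the 19 not called. Grey points that lie on an axis are members detected in under 10 libraries.

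Between years, the 9 libraries of 2012 were compared with the 9 of 2011 within each stage. At PV, 8 members were higher in 2012 and 12 lower, where 23.3% of all genes were called higher and 23.3% lower. Called differences above 2-fold numbered 3 higher (4.35%, against 3.67% of all genes) and 2 lower (2.90%, against 1.82%). These 2-fold counts include members that entered through 1 year. Without the libraries of their higher year, 4 of the 8 and 10 of the 12 still met the floor. At MR, 10 members were higher and 2 lower, where 17.6% of all genes were called higher and 18.1% lower, and differences above 2-fold numbered 2 (2.90%, against 0.463% of all genes) and 0 (against 1.08%). Of these called members, 9 of the 10 and both of the lower ones met the floor without their higher year. Each year is represented by 3 areas, and with the 3 area means per year as the unit, limma called 3 members higher and 0 lower at PV (6 and 4 at an unadjusted p below 0.05) and 0 in either direction at MR (4 higher and 0 lower unadjusted). That fit called 431 of all genes at PV and 0 at MR. A sequencing batch that coincides with the year cannot be told apart from it.

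VIT_00s0288g00040 separated the seasons at PV in every area. It read 1.55 to 2.73 FPKM in 2011 (median 2.17) and 6.57 to 9.44 FPKM in 2012 (median 8.04), with no overlap, a difference of 1.46 (SE 0.11, limma adjusted p = 1.2e-11). VIT_10s0071g00130 likewise did not overlap, at 1.36 to 2.91 FPKM in 2011 and 4.22 to 10.4 FPKM in 2012, a difference of 1.29 (SE 0.095, limma adjusted p = 7.7e-12).

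The 2 largest falls among called members at PV were in members with steps above 1 FPKM. VIT_08s0007g00260 was above 0 in 4 of the 9 libraries of 2011, at 9.46 to 31.2 FPKM, and in none of 2012, a difference of -1.88 (SE 0.57). Those 4 values came to 7.99 steps in all, and through them alone the gene met the floor. VIT_08s0040g01090 read 1.47 to 24.6 FPKM in 2011 (median 9.78) and 1.22 to 6.45 FPKM in 2012 (median 2.83), so the years overlapped. Its difference was -1.38 (SE 0.32, limma adjusted p = 0.00079), in steps of 1.39 FPKM.

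At MR the largest differences were in a pair of genes with neighbouring IDs. VIT_14s0036g00090 read 4.17 to 11.9 FPKM in 2011 (median 6.37) and 10.8 to 30.8 FPKM in 2012 (median 13.3), a difference of 1.22 (SE 0.14, limma adjusted p = 1.8e-07). VIT_14s0036g00080 read 1.66 to 5.95 FPKM in 2011 (median 2.65) and 4.19 to 13.9 FPKM in 2012 (median 4.98), a difference of 1.00 (SE 0.11, limma adjusted p = 6.2e-08). The years overlapped in both, and the size of the difference varied with area.

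Falls at MR were small. VIT_15s0046g00510 had a mean of 2.25 FPKM (SD 0.572, n = 9) in 2011 and 1.46 FPKM (SD 0.514, n = 9) in 2012, a difference of -0.41 (SE 0.091, limma adjusted p = 0.00085). VIT_09s0002g02050 went from 0.600 FPKM (SD 0.266, n = 9) to 0.326 FPKM (SD 0.168, n = 9), a difference of -0.26 (SE 0.088, limma adjusted p = 0.020), and lost its call without Sangiovese MR Montalcino 2012 replicate 3.

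The stage difference itself differed between years in 21 members: it was more positive in 2012 in 12 and more negative in 9. Of all genes, 17.7% had a more positive and 21.4% a more negative difference in 2012. Of these, 10 and 5 met the floor without the stage and year in which they were highest. With area means as the unit, 0 members were called by limma (8 and 3 at an unadjusted p below 0.05), and 0 of all genes. The pair VIT_14s0036g00090 and VIT_14s0036g00080 had the largest shifts upward among called members, 1.87 (SE 0.20, limma adjusted p = 3.1e-08) and 1.46 (SE 0.15, limma adjusted p = 2.7e-08).

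The largest shifts downward among called members came from PV. VIT_10s0071g00130 read 0.305 to 0.878 FPKM at MR in 2011 and 0.0733 to 1.26 FPKM at MR in 2012, so its higher PV level in 2012 was not met at MR, and its shift was -1.27 (SE 0.13, limma adjusted p = 2.6e-08). VIT_14s0066g02100 read 0.389 to 1.66 FPKM at PV in 2011 and 1.36 to 5.82 FPKM at PV in 2012, with at most 0.305 FPKM in any MR library. Its shift was -1.15 (SE 0.15). Without its PV libraries of 2012 its mean was 0.377 FPKM, below the floor.

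Among areas, 31 members differed at PV and 17 at MR in an F-test over the 3 areas. Of all genes, 60.4% differed at PV and 45.3% at MR, against 44.9% and 24.6% of the members. Without their highest area at that stage, 29 of the 31 and 14 of the 17 met the floor. As far as the labels tell, an area is 1 site per cultivar, and the test sets sites apart within these 2 years.

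VIT_00s1927g00020 had the lowest adjusted p at both stages. At PV it read 0.786 to 1.78 FPKM in Bolgheri, 3.41 to 4.58 FPKM in Montalcino and 2.67 to 3.77 FPKM in Riccione (limma F-test, adjusted p = 5.3e-10). Bolgheri did not overlap with either other area. At MR it read 0.972 to 2.68 FPKM in Bolgheri, 0.973 to 4.27 in Montalcino and 0.407 to 1.64 in Riccione (limma F-test, adjusted p = 2.3e-06), and the areas overlapped.

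VIT_00s0181g00200, the gene that was near 0 at MR, was highest in Bolgheri at PV. Its PV mean was 6.85 FPKM (SD 1.87, n = 6) in Bolgheri, 3.55 FPKM (SD 0.765, n = 6) in Montalcino and 3.71 FPKM (SD 1.27, n = 6) in Riccione (limma F-test, adjusted p = 5.0e-08). VIT_14s0036g00080 at MR had a mean of 7.92 FPKM (SD 5.63, n = 6) in Bolgheri, 3.59 FPKM (SD 1.76, n = 6) in Montalcino and 4.51 FPKM (SD 1.07, n = 6) in Riccione (limma F-test, adjusted p = 0.00017). The SD of 5.63 in Bolgheri covers both years, which differed there.

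The year difference varied with area in 21 members at PV and 16 at MR, where 50.6% and 45.9% of all genes were called. Without the group in which they were highest at that stage, 21 of the 21 and 14 of the 16 met the floor. At PV, VIT_00s0346g00080 went from 2.32 to 4.84 FPKM in Bolgheri and from 1.21 to 4.18 FPKM in Montalcino between 2011 and 2012. In Riccione it read 2.25 FPKM (SD 0.0792, n = 3) and 2.33 FPKM (SD 0.438, n = 3), within the spread (limma F-test, adjusted p = 5.0e-06). VIT_14s0081g00780 at PV went from 1.51 FPKM (SD 0.0958, n = 3) to 4.66 FPKM (SD 0.575, n = 3) in Bolgheri, with smaller steps from 2.42 to 3.10 FPKM in Montalcino and from 2.19 to 3.36 FPKM in Riccione (limma F-test, adjusted p = 3.1e-05).

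At MR, VIT_00s1927g00020 went in opposite directions: from 3.84 FPKM (SD 0.397, n = 3) in 2011 to 1.49 FPKM (SD 0.457, n = 3) in 2012 in Montalcino, and from 1.05 to 2.34 FPKM in Bolgheri (limma F-test, adjusted p = 5.7e-07). VIT_01s0011g05900 at MR went from 1.798 to 3.75 FPKM in Bolgheri and from 3.06 to 1.29 FPKM in Riccione. Without Bolgheri in 2012 at MR its mean was 0.838 FPKM, below the floor. Replicates of 2011 varied widely in this gene, with SDs of 0.988 in Bolgheri and 1.23 FPKM in Riccione.

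IDs of this form hold a chromosome field, a scaffold field and a running number along the scaffold, so consecutive IDs are likely neighbours; positions were not checked on a genome. The chromosome field was 13 for 9 members, 14 for 7, 10 and 19 for 6 each, and 00, which marks unplaced sequence, for 8. Chromosomes differ in their number of genes. The members were 0.596% of the genes with field 10, 0.552% with 13 and 0.446% with 19. They were 0.382% with 9 (5 members), 0.380% with 14 and 0.304% with 00, against 0.230% of all genes. Fields 4, 15 and 1 had 0.266%, 0.263% and 0.258%, and the remaining fields had less than 0.230%. No member (0) had 5, 7 or 17 in that field, which 1618, 1591 and 1103 genes carry. Of the 69, 8 members formed 4 pairs with nothing between them in the table.

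VIT_14s0036g00080 and VIT_14s0036g00090 were the pair that moved most alike. Over the 36 Sangiovese libraries Pearson's r of log2(FPKM + 1) was 0.98, and it was 0.93 after removing stage means. The libraries share stage, area and year, so r is a description. Both were highest at MR in Bolgheri in 2012, at 12.99 FPKM (SD 1.42, n = 3) and 30.5 FPKM (SD 0.224, n = 3), against 2.86 and 7.82 FPKM there in 2011. Both were also highest among PV groups in Riccione in 2011, at 2.50 FPKM (SD 1.13, n = 3) and 5.24 FPKM (SD 1.25, n = 3), against 0.307 and 0.793 FPKM there in 2012. VIT_14s0036g00090 was the higher in 35 of 36 libraries.

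**Figure D5:**
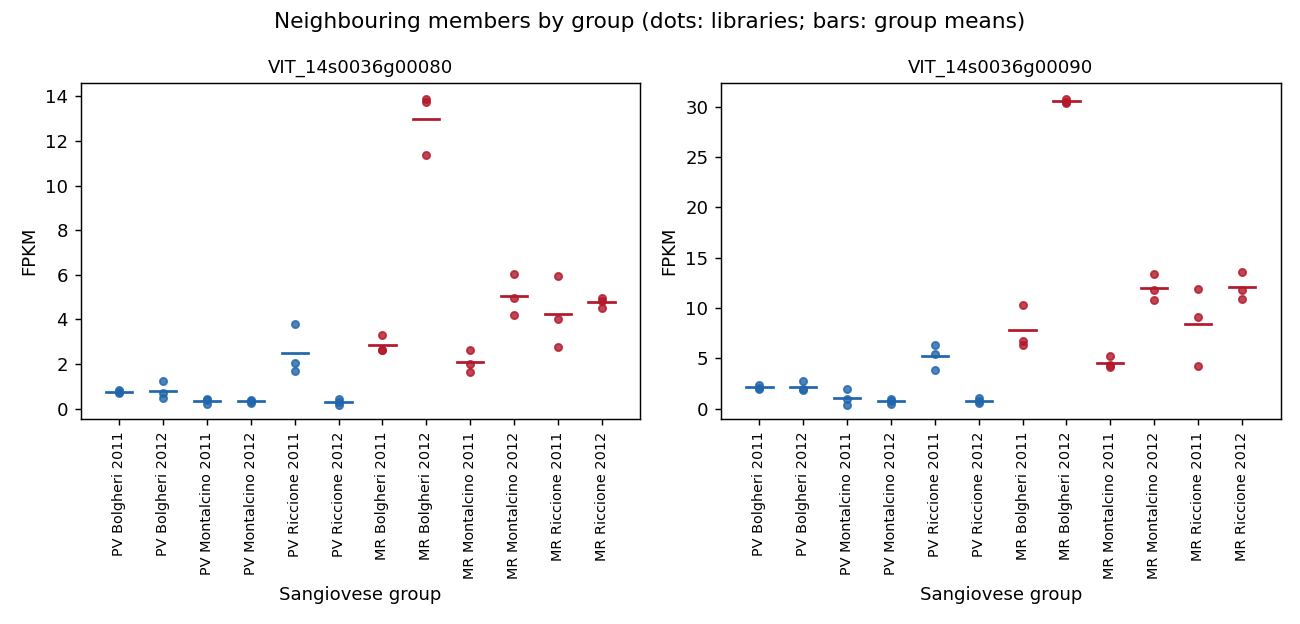
FPKM of VIT_14s0036g00080 (left) and VIT_14s0036g00090 (right) in the 36 Sangiovese libraries (dots) with the mean of each group of 3 as a bar, for PV in blue and MR in red. The order of the groups is similar in both panels, with MR Bolgheri 2012 highest at 12.99 and 30.5 FPKM and PV Riccione 2011 highest among the PV groups.

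The other pairs were less alike. For VIT_15s0048g01680 and VIT_15s0048g01690, both detected in all 36 libraries, at means of 2.48 and 2.56 FPKM, r was 0.72. For VIT_19s0176g00050 and VIT_19s0176g00060, at 1.42 and 2.07 FPKM, r was 0.73. For VIT_13s0158g00270 and VIT_13s0158g00290, r was 0.058, and 0.28 after removing stage means, against 0.70 and 0.74 for the other 2 pairs. The first kept similar levels at both stages, with medians of 5.46 FPKM at PV and 5.39 FPKM at MR, whereas the second read 1.31 to 3.70 FPKM at PV and 0.137 to 0.642 FPKM at MR.

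The members' nearest IDs on either side comprised 127 genes that are not members. Of these, 9 (7.09%) had a Sangiovese mean of at least 1 FPKM that was over 5 times the Cabernet Sauvignon mean, against 1.38% of all genes in the table. VIT_13s0064g00350 and VIT_18s0117g00380, each kept out by 1 library, are among them. Of the 127, 35 (27.6%) were detected in all 36 libraries of both cultivars, against 51.4% of all genes. A further 45 were detected in under 10 libraries of each of the cultivars. No share over all genes was taken for that count, so it is a description. None of the 127 (0) belonged to the 84 genes found only in Cabernet Sauvignon.

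Those 84 genes had a like distribution of levels, with a median mean of 2.05 FPKM in Cabernet Sauvignon and a highest of 35.4 FPKM. Of them, 46 were detected in all 36 Cabernet Sauvignon libraries, 34 in 10 to 35 and 4 in under 10. In both sets 6 genes had a mean of at least 10 FPKM.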

How the data were processed

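Pericarp RNA of 72 libraries was measured by RNA-seq. The authors deposited FPKM per gene ID and library in 1 table. Tools listed in the submitters' processing notes are TopHat2 2.0.9, Cufflinks 2.1.1 and CASAVA 1.8.2. Options, genome build, annotation and any scaling between libraries were not given in the sources used here. Per the labels' protocols the libraries were non-directional, made from total RNA. All 72 columns of sample values were used and 0 left out. The FPKM of a library summed to 813505 to 1014766. Read counts are unknown, so no counting intervals are given. Relative depth came from the steps between low values of 1049 genes, of which 93.5% of values under 3.5 reads lay within 0.1 of a whole number; it was used only to describe steps.

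From FPKM, members were selected by the 2 conditions. Genes with a mean of at least 1 FPKM in at least 1 Sangiovese group (19653) were fitted as log2(FPKM + 1) in limma 3.58.1 under R 4.3.3, with 12 group means, 24 residual degrees of freedom, an eBayes trend and two-sided tests. P-values were adjusted by Benjamini-Hochberg over all 19653 genes, with a threshold of 0.05. Cabernet Sauvignon libraries stayed out of the fit. The fit was tested on simulated data. Members, lists and tests were chosen with earlier results of these data known.

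Named were the 10 members with the highest mean; for stage, year and stage by year, the 2 largest called differences each way; for area and area by year, the 2 lowest adjusted p; those nearest each threshold; and adjacent members. Genes named for steps, ranges or detection were chosen after their values were seen. Alternatives changed the thresholds, pseudocount, filter, scaling, spread, samples and unit, and left out each library.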

Additional observations from a re-analysis of the deposited data

Results flagged for a closer look

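In 5 of the members named for stage or for stage by year, the stage difference (MR minus PV, log2(FPKM + 1)) differed between 2012 and 2011 by the limma interaction test, adjusted over all genes tested. VIT_14s0036g00090 differed by 1.87 (SE 0.20, limma adjusted p = 3.1e-08) and VIT_14s0036g00080 by 1.46 (SE 0.15, limma adjusted p = 2.7e-08); both had their highest group in MR Bolgheri 2012 and their highest PV group in Riccione 2011. VIT_10s0071g00130 differed by -1.27 (SE 0.13, limma adjusted p = 2.6e-08) and VIT_14s0066g02100 by -1.15 (SE 0.15; no p is given, since it met the floor only with its PV libraries of 2012), both with higher PV levels in 2012 in each of the 3 areas. VIT_00s0181g00200 differed by 0.27 (SE 0.11, limma adjusted p = 0.046), with a PV mean of 5.42 FPKM (SD 2.40, n = 9) in 2011 and 3.99 FPKM (SD 1.35, n = 9) in 2012. With area means as the unit, limma called 0 members in this comparison, and 8 higher and 3 lower passed an unadjusted p below 0.05. The groups hold 3 libraries each, too few for a check of single outlying libraries within a group.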

How the results depend on the processing

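Thresholds set the number of members more than any single library did. The 69 became 22 when every Cabernet Sauvignon library had to be at 0, 137 with a ceiling of 0.5 FPKM and 236 with 1 FPKM. Floors of 0.5, 2 and 5 FPKM gave 124, 37 and 15. Median-of-ratios scaling gave 67, of which 65 were shared, and leaving out each library gave 68 to 71.

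With a filter of at least 5 FPKM in a group, fewer members were tested. For stage, 9 were called higher and 13 lower, for year at PV 4 and 7, and for stage by year 6 and 5. For year at MR 1 was called lower, and the members called higher are not counted here. Area at PV and MR gave 15 and 7, and area by year 11 and 6. Quantile normalization called 34 members higher for stage. With group means as the unit, limma called 3 higher and 0 lower for year at PV, 0 and 0 for year at MR and 0 and 0 for stage by year; 6 and 4, 4 and 0, and 8 and 3 passed an unadjusted p below 0.05. For year at MR, members lower numbered 5 with a pseudocount of 0.1 and 1 with 5. A fit to all 72 libraries, in which the members' near-constant Cabernet Sauvignon values enter the spread, gave 4 lower for year at MR, 22 higher for stage by year, 30 for area at MR, and 34 and 30 for area by year at PV and MR. The cause of these shifts was not tested.

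Leaving out each Sangiovese library gave 20 to 20 higher and 28 to 31 lower for stage, 8 to 10 and 11 to 14 for year at PV, 9 to 13 and 1 to 3 for year at MR, 9 to 14 and 8 to 10 for stage by year, 27 to 32 and 15 to 22 for area at PV and MR, and 15 to 22 and 16 to 22 for area by year. Of 1081 alternative values of the 24 named results, 1067 kept the call and 14 lost it. Direction was read only for stage, year and stage by year, where 0 reversed. The F-tests for area and area by year have no direction to keep. Counting only the 59 members detected in 10 or more libraries, an alternative chosen after seeing the data, gave 20 higher and 29 lower for stage, 8 and 11 for year at PV, 10 and 2 for year at MR and 12 and 9 for stage by year.

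No paired analysis was possible because the library titles give no replicate numbers shared between groups. Members with large steps limit what low levels can show: for them a level under 1 step reads as 0.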
